A study of Mus musculus with 2 samples.

Results

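The 36 genes described here carry out the synthesis, storage, breakdown and oxidation of fatty acids. They were chosen by name, as the rows of the deposited count table whose gene symbol is on a list of lipogenic enzymes, desaturases, lipid droplet proteins, lipases and beta-oxidation enzymes. All 36 were found, among 30538 listed genes. RNA was sequenced from spleen cells sorted as CD11b+, Ly6G- and Ly6C-low, which the labels call resident splenic macrophages. The mice had received 100000 *Listeria monocytogenes* intravenously, and spleens were taken on day 3, with about 100000 cells per sort. There was 1 library from C57BL/6 animals and 1 from Ch25h-/- animals, in which the gene of cholesterol 25-hydroxylase is knocked out. Both genotypes were infected, and uninfected cells were not analysed here. The age of the mice and the number pooled into a library are not given in the sources used here.

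Fatty acids are built in the cytosol from acetyl-CoA, then lengthened and desaturated, joined to coenzyme A, and stored as triglyceride in lipid droplets or burned in mitochondria. The transcription factor SREBP-1, the product of Srebf1, drives most genes of the synthetic branch, and the oxysterol receptor LXR raises Srebf1 and several of its targets, among them Scd1. 25-hydroxycholesterol, the product of the enzyme encoded by Ch25h, is an oxysterol that holds back SREBP processing and can activate LXR. Macrophages take up fatty acids through CD36 and lipoprotein lipase, and their lipid droplets are coated with perilipin-2.

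The count table summed to 16957371 for C57BL/6, against 15986392 for Ch25h-/-. As each genotype was sequenced once, no SD, p-value or replicate check could be had. Levels are TMM-scaled CPM, counts relative to the scaled library total. Ratios are Ch25h-/- over C57BL/6 on the log2 scale, each with an exact 95% interval for counting error alone. Ch25h itself had 3 counts in C57BL/6 cells against 0 in Ch25h-/- cells, too few to check the genotype labels. Of the genes of the sort gate, Itgam, which encodes CD11b, had 706 CPM in C57BL/6 cells and 877 CPM in Ch25h-/- cells (log2 ratio 0.31). Ly6c2, of the Ly6C antigen, had 103 and 173 CPM (0.75, interval 0.66 to 0.84). The related gene Ly6c1 had 60 and 56 counts, and its interval held 0 (0.01, interval -0.54 to 0.56). Ly6g, whose product was selected against, had 8 and 41 counts (2.47, interval 1.36 to 3.77). Itgam, Ly6c2 and Ly6g thus differed between the libraries beyond counting error. All 12 red pulp macrophage markers listed for the check were measured in these libraries. Their summed level was 352 CPM in C57BL/6 cells against 231 CPM in Ch25h-/- cells. The 12 natural killer cell markers summed to 12854 and 20748 CPM, a far higher level in both libraries. These sums are not corrected for length.

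Promoters of members are given first, as examples from branches that differed in their ratios. RefSeq promoter windows of 300 bases (250 before and 50 after the annotated start, GRCm38.p6) were found for 28 of the 36 members, with 35 start sites among them. Scd1, Scd2, Fads1, Dgat1, Dgat2, Lpl, Fabp4 and Fabp5 had no entry. Fasn and Acss2 stand for the synthetic branch, Plin2 and Plin3 for the lipid droplet coat, and Lipe for the lipases. In these windows capitals mark CCAAT on either strand (ATTGG is its reverse complement) and CACGTG, the palindromic E-box. Fasn lies at chr11:120824498-120824797 on the minus strand, Acss2 at chr2:155517793-155518092 on the plus strand, Plin2 at chr4:86670010-86670309 on the minus strand, Plin3 at chr17:56290462-56290761 on the minus strand and the upstream of the 2 Lipe windows at chr7:25395938-25396237 on the minus strand. Each is written 5′ to 3′ in the direction of transcription.
Fasn: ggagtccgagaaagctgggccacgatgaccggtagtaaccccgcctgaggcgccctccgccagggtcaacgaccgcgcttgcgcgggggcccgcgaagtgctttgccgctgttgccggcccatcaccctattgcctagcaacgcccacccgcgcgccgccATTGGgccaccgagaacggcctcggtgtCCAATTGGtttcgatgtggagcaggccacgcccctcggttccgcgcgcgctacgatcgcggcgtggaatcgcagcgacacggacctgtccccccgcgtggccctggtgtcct
Acss2: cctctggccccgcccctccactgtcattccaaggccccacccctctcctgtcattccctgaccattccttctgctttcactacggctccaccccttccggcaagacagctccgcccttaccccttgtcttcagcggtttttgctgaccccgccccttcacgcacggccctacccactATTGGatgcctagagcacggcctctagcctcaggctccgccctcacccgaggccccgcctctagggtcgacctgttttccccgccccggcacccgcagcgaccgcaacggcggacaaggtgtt
Plin2: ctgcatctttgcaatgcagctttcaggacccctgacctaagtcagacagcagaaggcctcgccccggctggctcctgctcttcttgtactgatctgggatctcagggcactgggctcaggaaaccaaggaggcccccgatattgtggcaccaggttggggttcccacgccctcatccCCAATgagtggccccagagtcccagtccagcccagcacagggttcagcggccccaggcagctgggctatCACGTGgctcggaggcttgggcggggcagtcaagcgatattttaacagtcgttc
Plin3: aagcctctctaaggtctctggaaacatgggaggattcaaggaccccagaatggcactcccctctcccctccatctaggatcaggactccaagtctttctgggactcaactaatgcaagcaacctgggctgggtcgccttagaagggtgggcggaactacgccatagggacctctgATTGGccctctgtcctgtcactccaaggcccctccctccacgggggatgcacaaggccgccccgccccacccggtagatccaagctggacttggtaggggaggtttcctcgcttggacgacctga
Lipe: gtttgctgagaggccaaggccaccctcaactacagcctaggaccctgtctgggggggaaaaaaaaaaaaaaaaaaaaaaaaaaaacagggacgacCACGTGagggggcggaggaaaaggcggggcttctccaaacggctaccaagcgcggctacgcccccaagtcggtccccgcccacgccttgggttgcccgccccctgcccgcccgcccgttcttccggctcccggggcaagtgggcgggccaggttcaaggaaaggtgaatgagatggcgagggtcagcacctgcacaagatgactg

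CCAAT, on either strand, was found in 15 of the 35 member windows (14 of 28 members) and in 37.4% of all 32851 RefSeq windows of this length. Fasn held 3 matches, at 90, 62 and 59 bases before the start, and the last pair overlaps. CACGTG was found for Elovl5, Lipe, Mgll and Plin2, 4 of the 35 windows, and in 7.15% of all windows. In Plin2 it began 4 bases before the start. A sterol regulatory element of the form TCACNCCAC was found in 1 member window, at the downstream start of Acsl1, and in 1.24% of all windows. The direct repeats DR1 and DR4, the forms bound by PPAR and LXR with their partner RXR, were in no member window and in 0.0396% and 0.0152% of all windows. These are matches of letters in a window and describe no binding.

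Hadha and Hadhb, which encode the alpha and beta subunits of the mitochondrial trifunctional protein, are transcribed away from each other. Their GENCODE M21 starts on chromosome 5 lie 86 bases apart. The RefSeq windows share 228 bases, chr5:30155003-30155230 (GRCm38.p6). The Hadha window is shown because its capitals are also part of the Hadhb window, read there on the other strand. It lies at chr5:30154931-30155230 on the minus strand.
Hadha: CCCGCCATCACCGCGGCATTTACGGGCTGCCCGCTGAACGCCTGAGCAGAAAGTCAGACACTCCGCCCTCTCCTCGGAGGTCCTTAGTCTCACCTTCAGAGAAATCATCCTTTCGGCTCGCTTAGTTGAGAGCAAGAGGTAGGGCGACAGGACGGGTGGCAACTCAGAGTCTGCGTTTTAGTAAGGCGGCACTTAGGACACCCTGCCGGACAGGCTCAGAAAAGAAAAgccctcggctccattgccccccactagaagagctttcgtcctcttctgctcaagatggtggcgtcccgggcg

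Most fatty acid genes had similar levels in both libraries. A log2 ratio beyond 0.5 in size was seen for 9 of the 34 measured members. Lower in Ch25h-/- cells were the desaturase gene Scd1, the storage genes Dgat2 and Plin3, the lipase gene Lipe, and the uptake and carriage genes Cd36 and Fabp5. Higher were the desaturase gene Fads1, the elongase gene Elovl6 and the oxidation gene Hadhb. The mean of both libraries reached 1 CPM for 34 members, and the other two, Me1 and Mgll, were too sparse to count. A gene was called when it differed by at least 2-fold and its interval lay on 1 side of 0. By that rule 1 member was lower (Fabp5), against 5.77% of all 11972 measured genes, and 0 members were higher, against 2.07% of them. At 1.5-fold, a rule added after the values were seen, 6 members were lower, against 11.2% of all measured genes. They were Scd1, Dgat2, Plin3, Lipe, Cd36 and Fabp5. At the same rule 1 member, Fads1, was higher, against 7.35% of all. In RNA from a sorted population, fewer cells of a type and less RNA per cell cannot be told apart, and this applies to each difference below.

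The measured members had a median log2 ratio of 0.03, and all measured genes one of 0.01. Of the 34 measured members, 19 had a ratio above 0 and 15 below, and of all 11972 measured genes 6203 and 5769. The interval lay wholly above 0 for 12 of these members and wholly below 0 for 10, and for 3706 and 3294 of all measured genes. A ratio within 0.5 of 0 was seen for 25 of 34 measured members (73.5%) and for 75.8% of all measured genes. Summed over the 36 members, counts made up 0.347% of the C57BL/6 library (0.344 to 0.350%, exact binomial) against 0.325% of the Ch25h-/- library (0.322 to 0.327%). Without Scd1 the other 35 genes took 0.301% of each library.

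**Figure D1:**
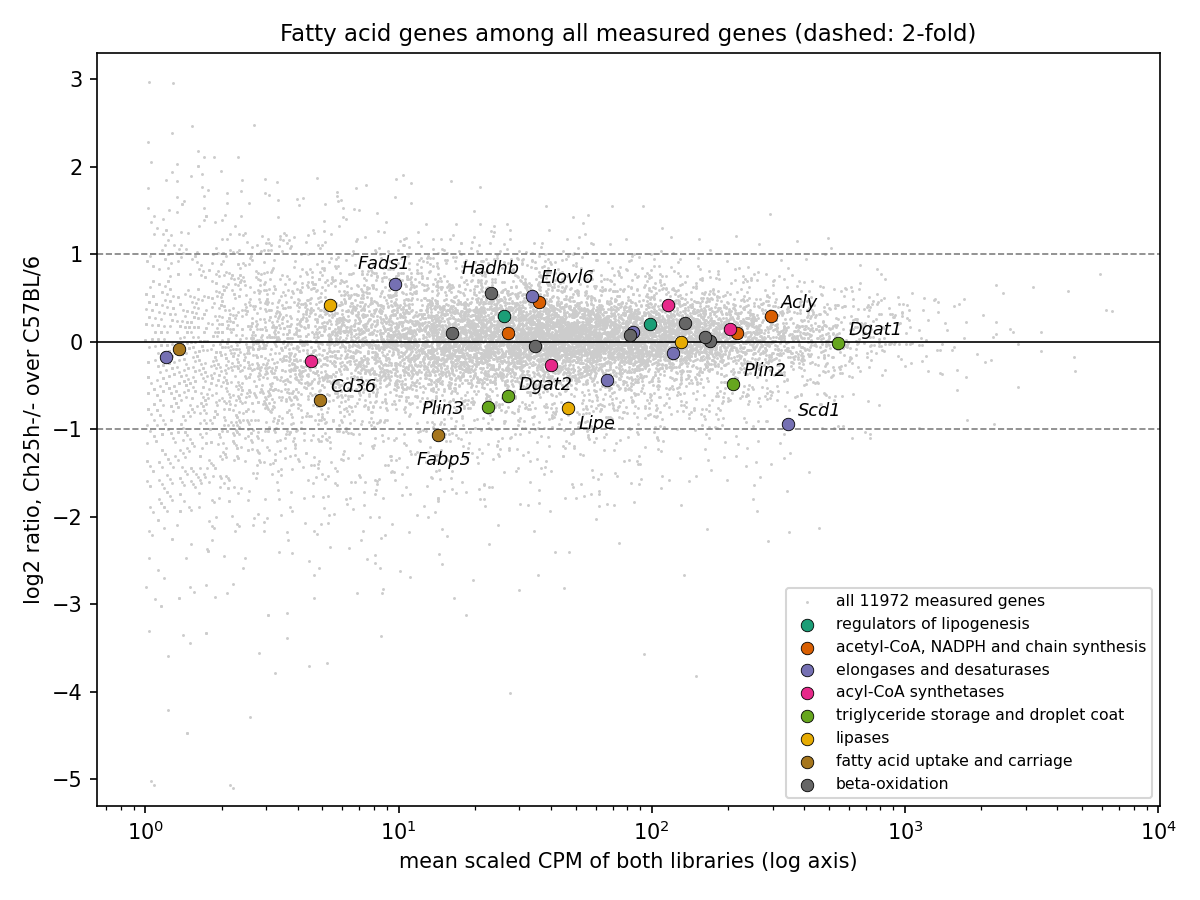
Log2 ratio (Ch25h-/- over C57BL/6, vertical axis) against the mean CPM of both libraries (horizontal log axis) for all 11972 measured genes (grey) and the 34 measured members (coloured by role). Members lie between -1.07 and 0.67, with Fabp5 beyond the lower 2-fold line and Scd1, at -0.94, just inside it.

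Regulators and enzymes of synthesis were slightly higher in Ch25h-/- cells, and no measured member of these groups reached 1.5-fold. Srebf1 (ENSMUSG00000020538), the gene of SREBP-1, had 91.6 CPM in C57BL/6 cells against 105 CPM in Ch25h-/- cells, for a log2 ratio of 0.20 (0.10 to 0.30). Mid1ip1, which encodes a protein that activates acetyl-CoA carboxylase, had 23.4 and 28.7 CPM, a ratio of 0.29 (0.09 to 0.49). Both regulators were thus higher in Ch25h-/- cells beyond counting error, though Srebf1 lay within the middle 50% of all measured genes (-0.26 to 0.25). An antisense gene without counts of its own here shares 25.5% of the exon bases of Mid1ip1. Whether counting used strand is not known for these bases.

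Acly, the enzyme that makes cytosolic acetyl-CoA from citrate, had 265 CPM in C57BL/6 cells against 326 CPM in Ch25h-/- cells, for a log2 ratio of 0.30 (0.24 to 0.35). Acss2, which makes acetyl-CoA from acetate, had 30.3 and 41.7 CPM (0.46, interval 0.29 to 0.63). Fasn, fatty acid synthase, had 209 and 224 CPM (0.10, interval 0.04 to 0.17). These 3 intervals lay above 0, and Acss2 had the highest ratio of the 4 measured enzymes. Acaca, acetyl-CoA carboxylase, the committed step of synthesis, had 26.2 and 28.0 CPM, and its interval held 0 (-0.09 to 0.29). Of the 50-base stretches of its transcripts, 30.4% also occur in transcripts of other genes, so its count depends on how such reads were treated. The NADPH-producing malic enzyme gene Me1 had 4 counts in C57BL/6 cells against 14 in Ch25h-/- cells. Its interval was wide, 0.25 to 3.98, and it was not measured by the CPM rule. Of the 50-base stretches of Me1, 22.9% occur in other genes, led by a processed pseudogene. Summed over all 5 genes, the level was 531 and 621 CPM, for a log2 ratio of 0.23 (0.18 to 0.27).

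**Figure D2:**
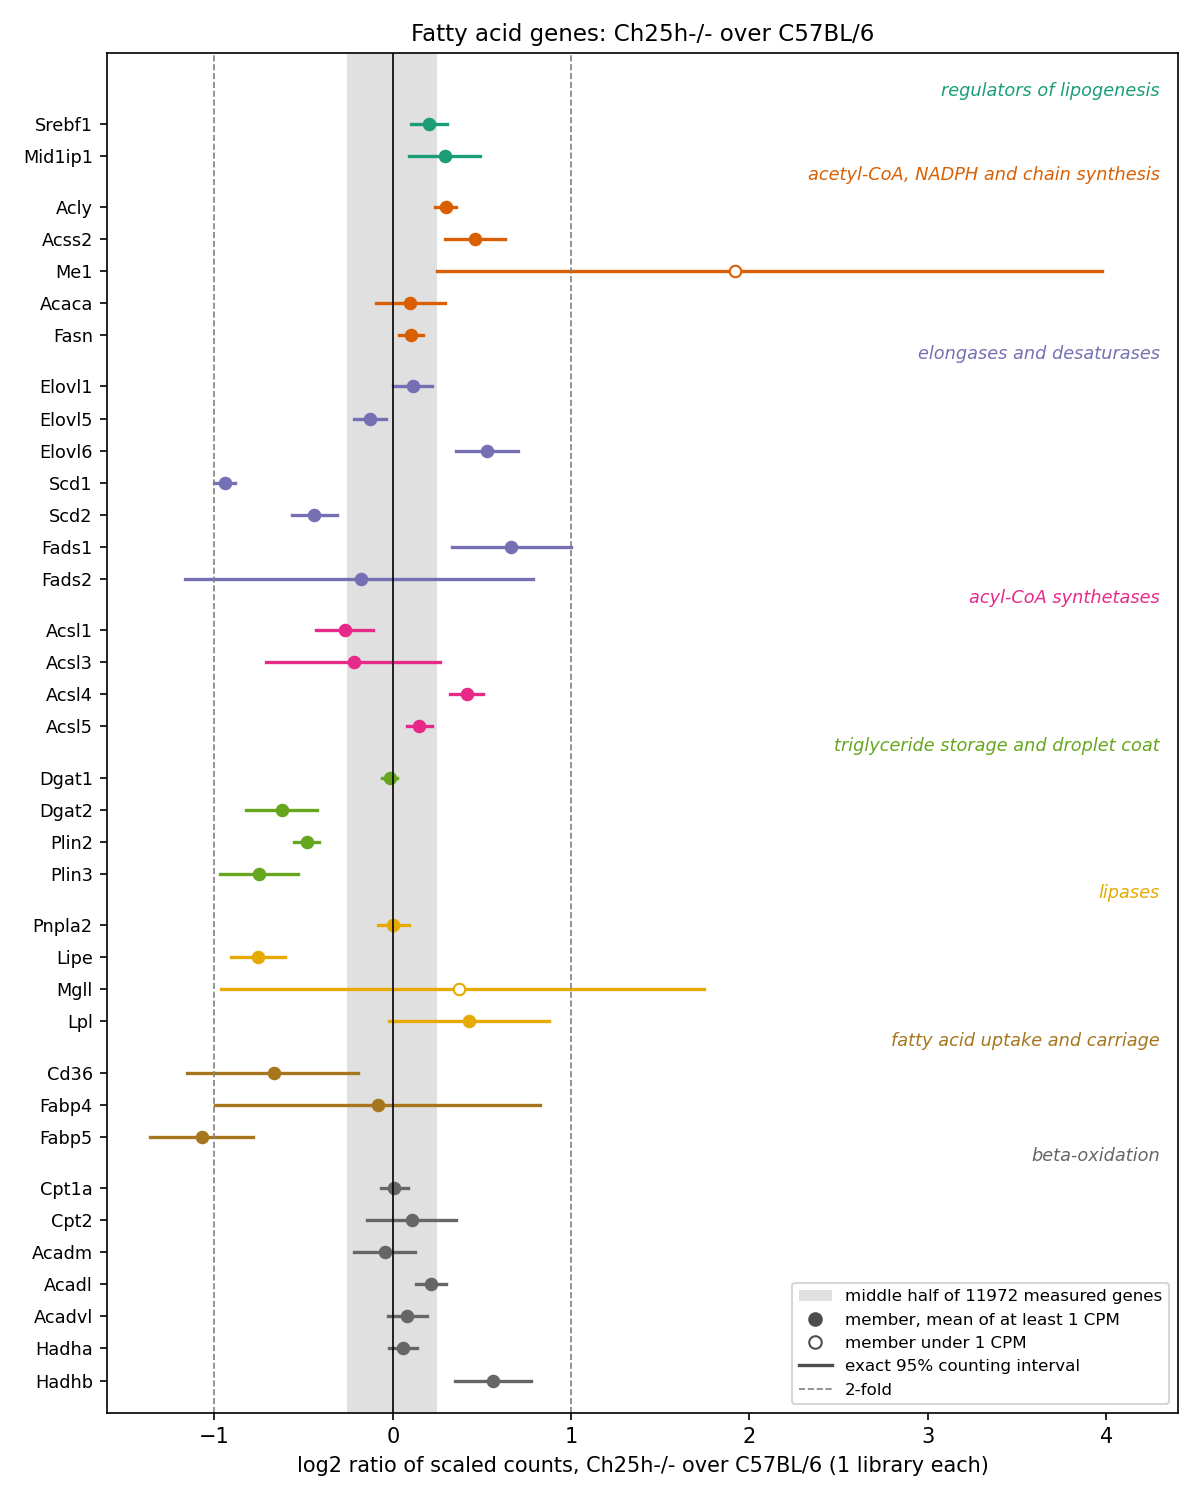
Log2 ratio of each of the 36 members (points) with its exact 95% counting interval (lines), grouped by role; open points are the 2 members under 1 CPM, the grey band is the middle 50% of all measured genes and dashed lines mark 2-fold. Fabp5, Scd1, Lipe and Plin3 lie furthest below 0, and most beta-oxidation genes lie in the grey band.

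Desaturases and elongases went in different directions. Scd1 (ENSMUSG00000037071, chr19:44394455-44407879 on the minus strand of GRCm38), a delta-9 desaturase that makes oleate and palmitoleate, had 7735 counts in C57BL/6 cells against 3724 in Ch25h-/- cells. These are 452 and 235 CPM, for a log2 ratio of -0.94 (-1.0 to -0.89), and 6.26% of measured genes had a lower ratio. Scd2, in the same gene cluster at chr19:44293674-44306864 on the plus strand, had 76.3 and 56.3 CPM, for a log2 ratio of -0.44 (-0.56 to -0.31). Both desaturases were lower in Ch25h-/- cells, and the interval of Scd1 lay wholly below that of Scd2. Scd1 made up 85.6% of the counts of this pair in C57BL/6 cells (84.8 to 86.3%, exact binomial) and 80.7% in Ch25h-/- cells (79.5 to 81.8%), a share that does not depend on scaling. Related genes of the same cluster were nearly silent, with 7 and 2 counts for Scd3 and 17 and 6 for Scd4. Of the 50-base stretches of Scd1, 4.56% occur in other genes, led by Scd3.

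The polyunsaturated fatty acid desaturase Fads1 (chr19:10182888-10196877, plus strand) went the other way. It had 7.48 CPM in C57BL/6 cells against 11.9 CPM in Ch25h-/- cells, for a log2 ratio of 0.67 (0.33 to 1.0). Fads2, which acts before Fads1 in the same pathway and lies beside it on chromosome 19, had 22 and 18 counts, and its interval of -1.16 to 0.79 held 0.

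Among elongases, Elovl6, which lengthens palmitate to stearate, had 27.6 CPM in C57BL/6 cells against 39.8 CPM in Ch25h-/- cells (0.53, interval 0.35 to 0.70). Elovl1, which makes very long saturated chains, had 1393 counts in each library, or 81.4 and 87.9 CPM (0.11). Elovl5, which lengthens polyunsaturated chains, had 126 and 116 CPM (-0.13, interval -0.22 to -0.04). Elovl6 therefore stood above 0 and Elovl5 slightly below it. Summed over the 7 genes, the level was 773 and 548 CPM, for a log2 ratio of -0.50 (-0.54 to -0.46). Without Scd1 the sum of the other 6 was 320.5 and 313 CPM, a ratio of -0.04 with an interval that held 0 (-0.09 to 0.02).

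Acyl-CoA synthetases, which join fatty acids to coenzyme A, also differed among themselves. Acsl5, an endoplasmic reticulum and mitochondrial form, had 194 CPM in C57BL/6 cells against 215 CPM in Ch25h-/- cells (0.15, interval 0.08 to 0.22). Acsl4, which prefers arachidonate, had 99.2 and 132 CPM (0.42, interval 0.32 to 0.51). Acsl1, the synthetase induced in inflammatory macrophages, had 43.8 and 36.4 CPM (-0.27, interval -0.43 to -0.11). Acsl4 was thus higher and Acsl1 lower in Ch25h-/- cells, both by less than 1.5-fold. Acsl3, found on nascent lipid droplets, had 83 and 66 counts, with an interval that held 0. Acsl4 took 29.0% of the counts of these 4 genes in C57BL/6 cells (27.9 to 30.2%) and 34.1% in Ch25h-/- cells (33.0 to 35.3%). Acsl1 took 12.8% (12.0 to 13.7%) and 9.39% (8.67 to 10.1%).

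Genes of the lipid droplet coat were lower in Ch25h-/- cells, as was 1 of the 2 genes of the last step of triglyceride synthesis. Plin2 (ENSMUSG00000028494, chr4:86648386-86670060), the perilipin of macrophage lipid droplets whose promoter window is printed above, had 4166 counts in C57BL/6 cells against 2763 in Ch25h-/- cells. These are 243 and 174 CPM, for a log2 ratio of -0.48 (-0.55 to -0.41). Plin3 (chr17:56277476-56292873), a perilipin that moves between cytosol and droplets, had 28.3 and 16.9 CPM (-0.75, interval -0.97 to -0.53). Both coat genes were lower, and Plin3 passed the 1.5-fold rule while Plin2 did not.

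The 2 diacylglycerol acyltransferases stood apart from each other. Dgat2 (chr7:99153658-99182719) had 32.8 CPM in C57BL/6 cells against 21.3 CPM in Ch25h-/- cells (-0.62, interval -0.82 to -0.43). Dgat1 (chr15:76502015-76511953), an unrelated protein with the same reaction, had 549 and 543 CPM (-0.02, interval -0.06 to 0.03). Dgat1 took 94.4% of the counts of this pair in C57BL/6 cells (93.9 to 94.8%) and 96.2% in Ch25h-/- cells (95.8 to 96.6%). Summed over Dgat1, Dgat2, Plin2 and Plin3, the level was 854 and 755 CPM, a ratio of -0.18 (-0.21 to -0.14). Without Dgat1, a sum added after the values were seen, it was 305 and 213 CPM, a ratio of -0.52 (-0.58 to -0.46).

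Of the 3 measured lipases, Lipe alone had an interval that did not hold 0. Lipe (ENSMUSG00000003123, chr7:25379527-25398710, minus strand), hormone-sensitive lipase, which cleaves diacylglycerol and cholesteryl esters, had 1007 counts in C57BL/6 cells against 552 in Ch25h-/- cells. These are 58.8 and 34.8 CPM, for a log2 ratio of -0.76 (-0.91 to -0.60), and 8.69% of measured genes had a lower ratio. An antisense gene shares 15.6% of its exon bases and had 0 and 3 counts. Pnpla2, adipose triglyceride lipase, which removes the first fatty acid from triglyceride, had 130.3 and 130.5 CPM (0.00, interval -0.08 to 0.09). Pnpla2 was therefore level while Lipe was lower. Lpl, lipoprotein lipase, had 78 and 97 counts (0.43, interval -0.02 to 0.87), and Mgll, monoacylglycerol lipase, had 10 and 12 counts.

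The genes of uptake and carriage had low counts and ratios below 0. Fabp5 (ENSMUSG00000027533, chr3:10012548-10016607), a cytosolic fatty acid carrier of macrophages and epidermis, had 331 counts in C57BL/6 cells against 146 in Ch25h-/- cells. These are 19.3 and 9.22 CPM, for a log2 ratio of -1.07 (-1.36 to -0.78). Of its 50-base stretches, 5.48% occur in other genes, among them a processed pseudogene. Cd36 (chr5:17781690-17888801), the scavenger receptor that takes up long-chain fatty acids and oxidised lipoproteins, had 103 and 60 counts (-0.67, interval -1.15 to -0.20). Fabp4, the adipocyte and macrophage carrier, had 24 and 21 counts (-0.08), too few to show a difference of 1.5-fold. Fabp5 and Cd36 were thus lower beyond counting error, and the 3 genes together had 26.8 and 14.3 CPM (-0.90, interval -1.14 to -0.67). Most of these counts were those of Fabp5, and Lpl, listed with the lipases, is not in the sum.

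Beta-oxidation genes were mostly level. Cpt1a, the carnitine palmitoyltransferase that admits long chains to mitochondria and sets the rate of oxidation, had 169 CPM in C57BL/6 cells against 169.7 CPM in Ch25h-/- cells (0.01, interval -0.07 to 0.09). Cpt2, its partner at the inner membrane, had 15.7 and 16.9 CPM (0.11, interval -0.14 to 0.36). The intervals of Cpt1a and Cpt2 thus held 0, and that of Cpt2 was too wide to show a level gene. Slc25a20, a further mitochondrial oxidation gene outside the members, is named after its value was seen. It had 856 counts in C57BL/6 cells against 951 in Ch25h-/- cells, and its interval lay above 0 (0.26, interval 0.13 to 0.40).

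Acyl-CoA dehydrogenases open each round of oxidation, and they are named for chain length. Acadl, for long chains, had 125 CPM in C57BL/6 cells against 145 CPM in Ch25h-/- cells (0.22, interval 0.13 to 0.30). Acadm, for medium chains, had 35.1 and 34.0 CPM (-0.05, interval -0.22 to 0.12). Acadvl, for very long chains, had 79.7 and 84.3 CPM (0.08, interval -0.03 to 0.19). Only Acadl of these 3 had an interval above 0. Acadvl shares 42.9% of its exon bases with Dvl2 on the opposite strand, and whether counting used strand is not given in the sources used here.

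Hadha, which carries the hydratase and dehydrogenase steps, had 159 CPM in C57BL/6 cells against 166 CPM in Ch25h-/- cells (0.06, interval -0.02 to 0.14). Hadhb, which carries the thiolase step and whose RefSeq promoter window overlaps that of Hadha, had 18.7 and 27.6 CPM (0.56, interval 0.35 to 0.77). The 2 subunits therefore had intervals that did not overlap. Hadhb took 10.5% of the pair's counts in C57BL/6 cells (9.45 to 11.7%) and 14.3% in Ch25h-/- cells (13.1 to 15.6%), a share computed after its ratio was seen. Of the 50-base stretches of Hadhb, 19.7% occur in other genes, led by a processed pseudogene, against 0.0341% for Hadha. The part of such reads in the Hadhb value was not tested. Over all 7 beta-oxidation genes the summed level was 602 and 643 CPM (0.10, interval 0.06 to 0.14).

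**Figure D3:**
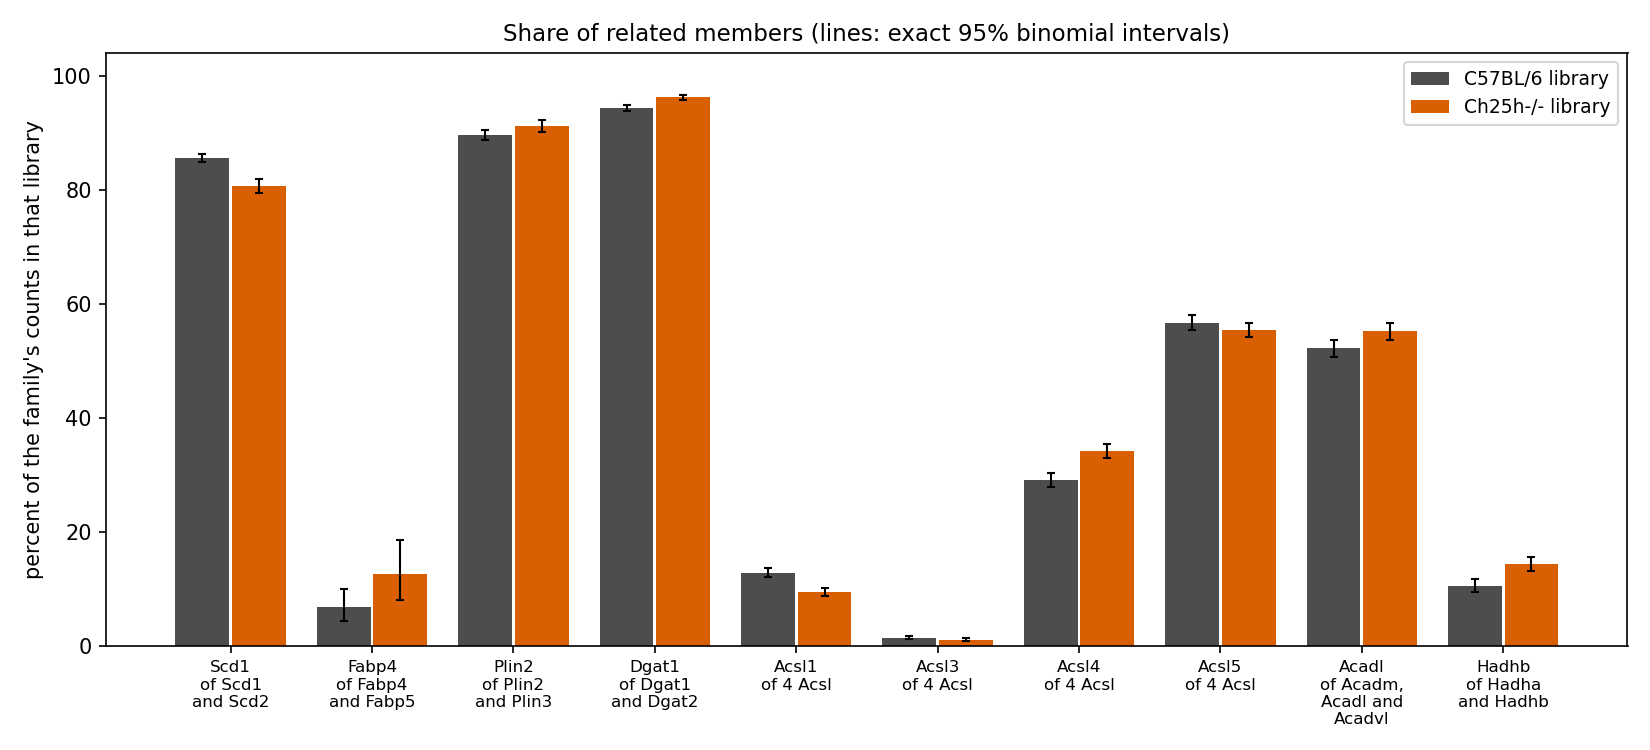
Percent of a family's counts taken by the named member in each library (bars), with exact 95% binomial intervals (lines). The largest difference in points is that of Fabp4, at 6.76% and 12.6% from 24 and 21 counts with overlapping intervals, while the shares of Scd1, Dgat1, Acsl1, Acsl4 and Hadhb have intervals that do not overlap.

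Levels of different members were compared per length, as CPM per kilobase of merged exons. Dgat1 was first in both libraries, at 179.7 CPM per kb in C57BL/6 cells against 177.6 CPM per kb in Ch25h-/- cells. Scd1 was next in C57BL/6 cells, at 92.4 CPM per kb, and the fifth in Ch25h-/- cells, at 48.1 CPM per kb. Acadl went from rank 4 (62.4 CPM per kb) to rank 2 (72.5 CPM per kb). The leading members thus included genes of storage, desaturation, oxidation and synthesis.

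Plin2 held ranks 3 and 4 and Acly ranks 5 and 3. At the low end, Lpl had 0.435 and 0.584 CPM per kb, Fads2 0.390 and 0.345, and Fabp4 0.312 and 0.295. Me1 and Mgll were the lowest in both libraries. Merged exons include those of rare isoforms, so a level per kb is a low estimate for a gene with long rare exons. The merged exons of Acss2, for example, span 10163 bases.

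**Figure D4:**
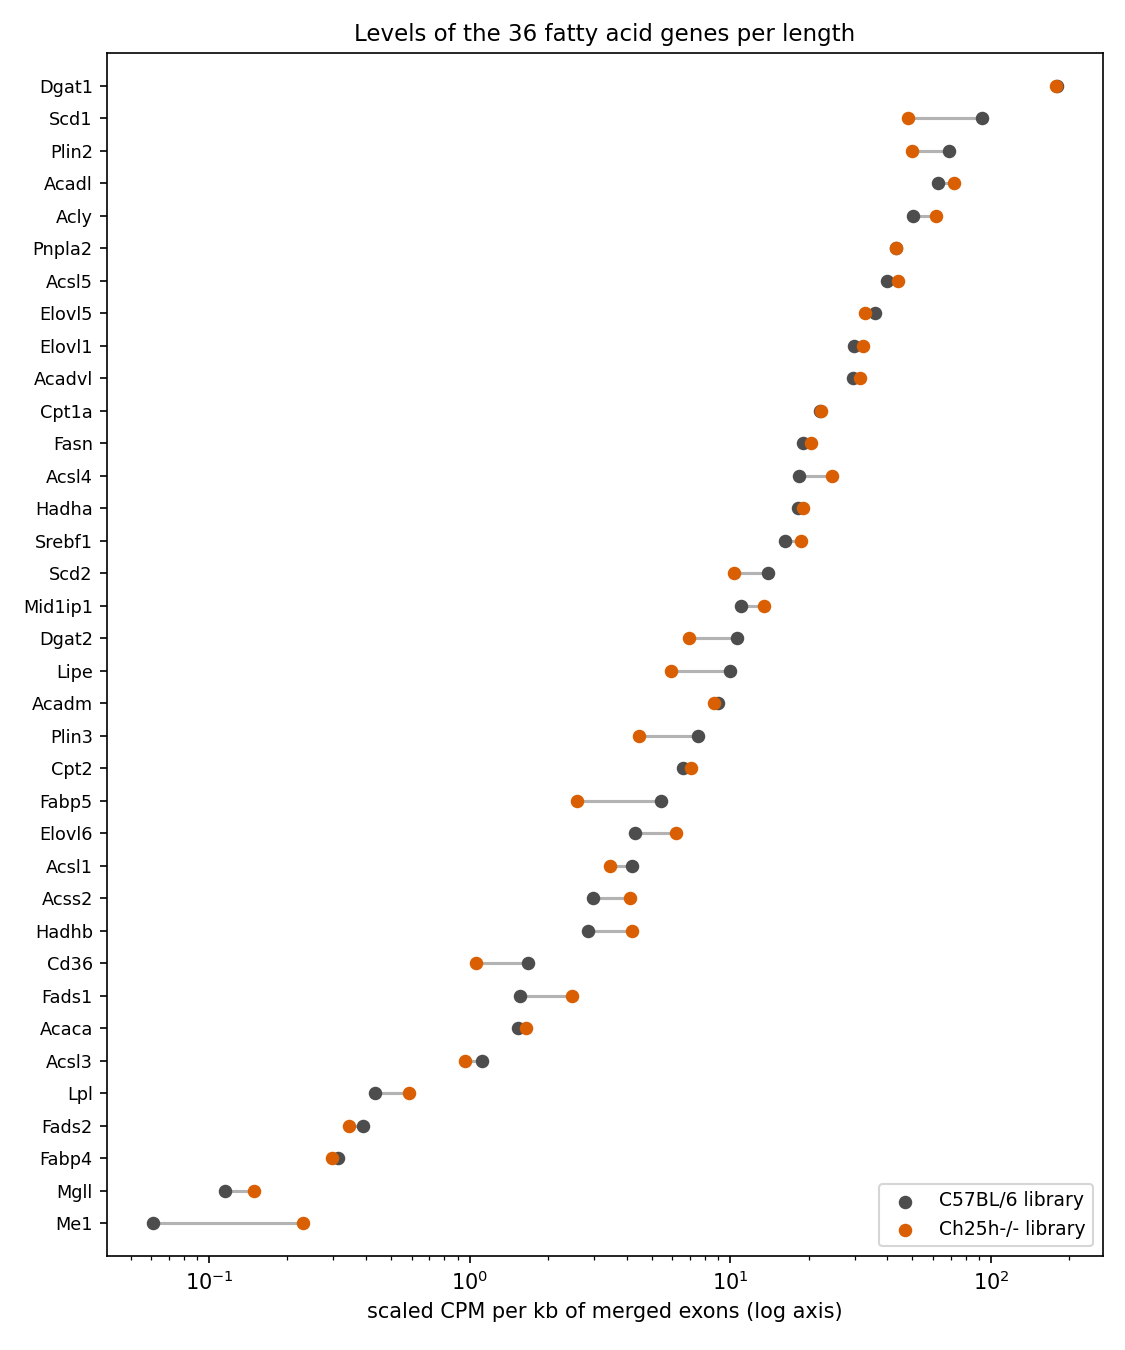
Level of each of the 36 members in CPM per kb of merged exons (horizontal log axis) in C57BL/6 cells (grey) and the Ch25h-/- library (orange), ordered by the C57BL/6 value. Dgat1 leads with 179.7 and 177.6 CPM per kb, and Scd1 shows the widest gap among the first 10 genes.

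A further 124 genes of the same pathways gave the wider picture. In each list the gene of highest CPM is named, a rank not corrected for length. Of these, 93 were measured, with a median log2 ratio of -0.07. By the 2-fold rule 2 were higher and 6 lower. At 1.5-fold 7 were higher and 10 lower. Each of these counts is set against the shares of all measured genes given above (2.07% and 5.77% at 2-fold, 7.35% and 11.2% at 1.5-fold).

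Of 14 measured nuclear regulators outside the 36 members, the interval held 0 for 7, lay above 0 for 4 and below 0 for 3. For all 11972 measured genes these counts were 4972, 3706 and 3294. Srebf2, the sterol-regulating relative of Srebf1, led its list, at 192 CPM in C57BL/6 cells against 180 CPM in Ch25h-/- cells (-0.09, interval -0.16 to -0.01). Ppargc1a, a coactivator of mitochondrial genes, had 24 and 52 counts (1.23, interval 0.50 to 1.99) and was called higher. Ppara, the receptor that drives oxidation genes in liver, had 0 counts in both libraries and is named outside the naming rule given below.

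In the list of further synthesis and elongation genes, Elovl7, an elongase of long saturated chains, had 3.39 CPM in C57BL/6 cells against 8.96 CPM in Ch25h-/- cells (1.40, interval 0.95 to 1.87) and was called higher. The cytosolic thioesterase gene Acot7 led that list, at 70.0 and 87.3 CPM (0.32). Acacb, the mitochondrial form of acetyl-CoA carboxylase, was called lower at 27 and 12 counts and is named after its value was seen. These calls, 1 higher and 1 lower, were the ones made at 2-fold in that list.

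Genes of glycerolipid assembly included Lpin1, the phosphatidate phosphatase lipin-1, which supplies diacylglycerol to Dgat1 and Dgat2. It had 103 CPM in C57BL/6 cells against 200.3 CPM in Ch25h-/- cells (0.96, interval 0.88 to 1.04), just under 2-fold. Its relative Lpin2, which led the list, had 164 and 151 CPM (-0.12, interval -0.20 to -0.04). Lpin1 was thus higher while the droplet genes among the members were lower. Among lipolysis genes, the monoacylglycerol lipase gene Abhd6 had 116 and 49 counts (-1.13, interval -1.64 to -0.64), and Lipa, lysosomal acid lipase, had 55.8 and 60.3 CPM (0.11, interval -0.02 to 0.25).

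For uptake and carriage, the transporter and acyl-CoA synthetase gene Slc27a2 had 40 and 12 counts (-1.63, interval -2.69 to -0.67). Acbd3 led the list, at 103 and 91.7 CPM (-0.17). Of the 7 measured genes of this list, 4 had intervals below 0 and 3 above 0. Those above 0 were Slc27a4 (0.29), Dbi (0.36) and Acbd5 (0.22), named after their values were seen. Among 34 measured oxidation genes outside the members, 0 were called higher at 2-fold and 2 lower, namely Acad10 (134 and 43 counts, -1.53, interval -2.06 to -1.02) and Acaa1b (31 and 10 counts), the latter named after its value was seen. Ucp2, a mitochondrial carrier abundant in leukocytes, had 614 CPM in C57BL/6 cells against 494 CPM in Ch25h-/- cells (-0.31, interval -0.36 to -0.27). The median of these oxidation genes was -0.16, and that of the 7 beta-oxidation members 0.08.

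Marker lists of cell types also differed between the libraries, while the measured members together had a median log2 ratio of 0.03. Of 12 red pulp macrophage markers, 10 had a ratio below 0 (median -0.75), and their summed level was 352 CPM in C57BL/6 cells against 231 CPM in Ch25h-/- cells. Of 6 marginal zone and metallophilic macrophage markers, 5 were measured and all 5 had ratios below 0 (median -0.87), with sums of 114 and 64.5 CPM, and Cd209b was at 0 counts in both libraries. Conventional dendritic cell markers had a median of -1.88 over 10 measured of 13, with sums of 2062 and 843 CPM, and Xcr1 was at 0 counts in C57BL/6 cells. These lists therefore had medians below 0.

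Ly6C-low monocyte markers, the population the sort gate could also hold, had a median of -0.29 over 10 genes, with sums of 2472 and 2981 CPM. Among B cell markers all 10 had ratios below 0 (median -0.76, sums of 1495 and 915 CPM). Plasma cell markers had a median of -1.15 over 6 measured of 7, with sums of 481 and 389 CPM, and Tnfrsf17 was at 0 counts in Ch25h-/- cells. Both lists of the B lineage thus had medians below 0.

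Natural killer cell markers had ratios above 0 for 12 of 12 genes (median 0.80), with the sums given above. Proliferation genes had ratios above 0 for 10 of 10 (median 0.81, sums of 1386 and 2475 CPM). Neutrophil markers had ratios above 0 for 11 of 12 (median 0.87, sums of 1625 and 2621 CPM), and Ly6C-high monocyte markers for 6 of 7 (median 0.63, sums of 2240 and 3186 CPM). T cell markers had a median of 0.21 over 11 genes, plasmacytoid dendritic cell markers one of -0.32 over 6, and eosinophil, basophil and mast cell markers one of -0.24 over 10. Erythroid and megakaryocyte markers had a median of 0.84 over 3 measured of 9, with sums of 193 and 327 CPM. Medians were also above 0 for fibroblast and adipocyte markers (0.34 over 2 measured of 9) and endothelial markers (0.15). Fat cell markers were scarce: Plin1, Cidec and Lep had 0 counts in both libraries and Adipoq had 1 and 0. Of 9 endothelial markers 3 were measured, and Emcn and Plvap had 0 counts in both libraries. The part of any of these cell types in the ratios of the members was not tested.

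**Figure D5:**
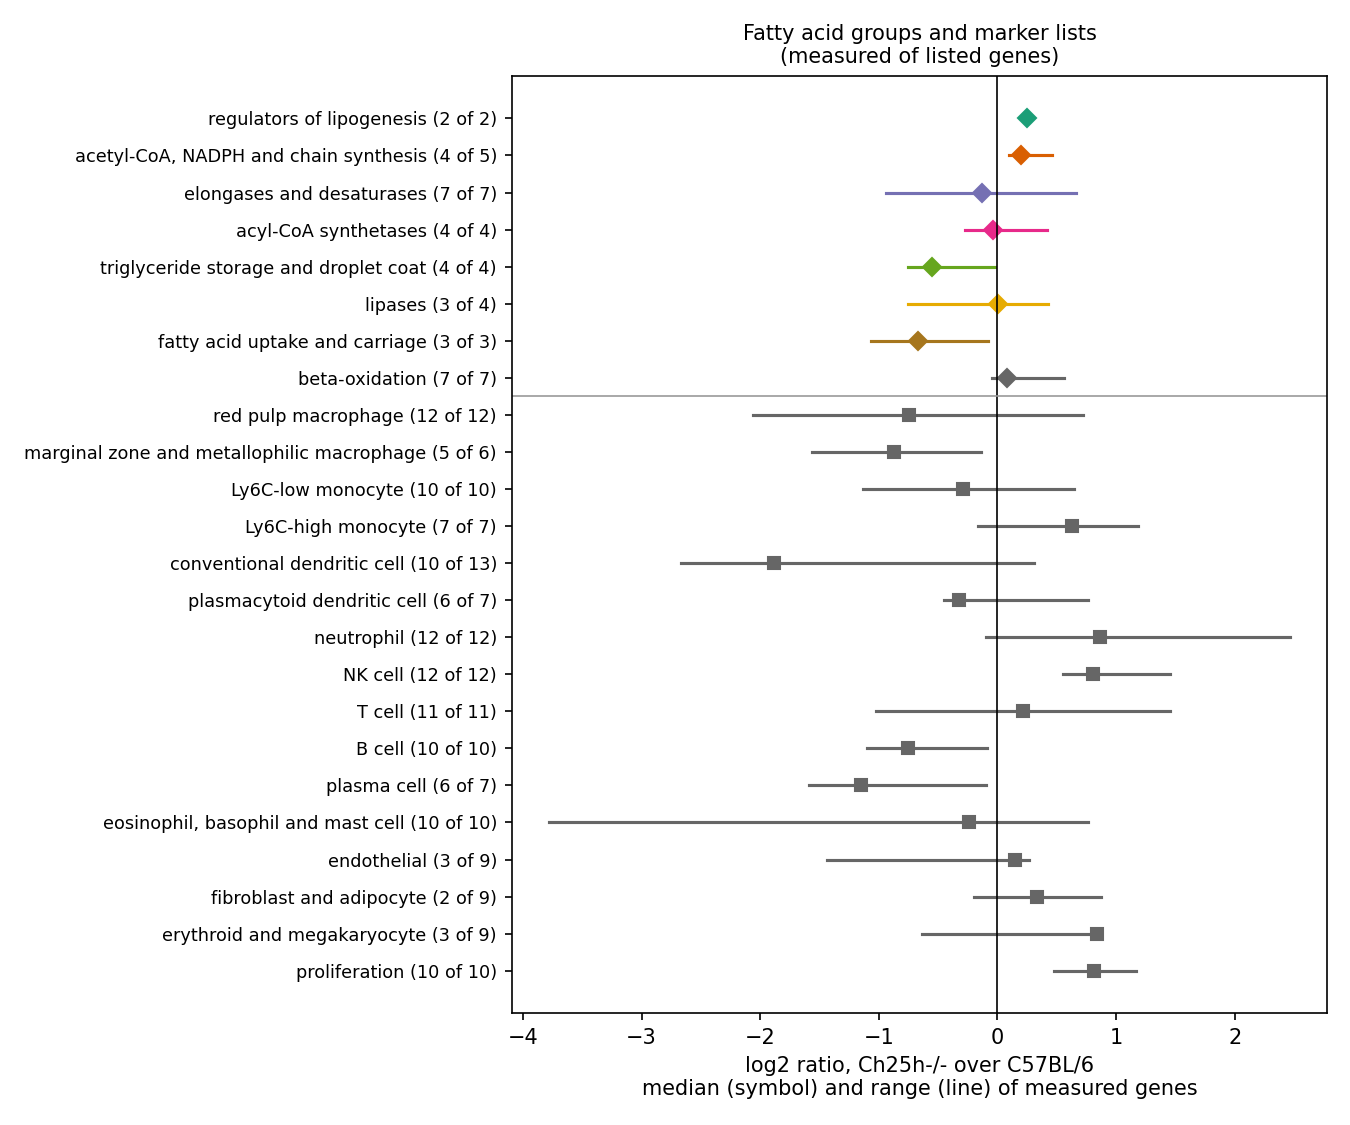
Median (symbols) and range (lines) of the log2 ratio, Ch25h-/- over C57BL/6, for the measured genes of the 8 role groups of members (coloured, top) and of 16 marker lists (grey, bottom), with measured and listed genes in brackets. Role medians lie between -0.67 (uptake and carriage) and 0.25 (regulators), and marker medians between -1.88 (conventional dendritic cell) and 0.87 (neutrophil).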

How the data were processed

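Per the labels' protocols, TRIzol was used for RNA and a KAPA RNA HyperPrep kit for libraries. Tools in the submitters' processing notes are edgeR 3.26.8, Subread 1.5.2 with featureCounts, GSNAP and FastQC 0.11.9, and the builds are GRCm38 and mm10. The authors deposited raw counts per gene for both libraries. Strand setting and treatment of reads with several matches are not given in the sources used here.

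Counts were scaled by TMM (edgeR 4.0.16, R 4.3.3). A gene was measured from a mean of 1 CPM. Ratios used no prior count, and their Clopper-Pearson 95% intervals (scipy 1.17.1) cover counting error only. The sources used here name no molecular identifiers, so PCR copies may be among the counts. A count of 0 was set to a floor of 3 counts (0.175 and 0.189 CPM), which no measured member needed. Positions and exon lengths are those of GENCODE M21 (GRCm38), which holds 30126 of the table's IDs; 8 listed genes were found by ID under older symbols. Sequences are RefSeq's (GRCm38.p6). Listed genes were named by rule: every member, and of each further pathway list the called genes from 5 CPM, the gene with the largest ratio in size and the most abundant gene. Genes named outside the rule are marked as such. Members and lists were chosen with earlier results of these data known. The interval code was run on counts simulated with counting error alone, where 95.3% of intervals held the true ratio. That setting holds no PCR copies and no variation between animals, so the run cannot speak to either. Alternatives were scaling by total counts, by upper quartile or by size factors of DESeq2 1.42.0, filters at 5 CPM and at 1 count, a prior count of 2, an interval wholly beyond 2-fold and, added later, a 1.5-fold rule.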

Additional observations from a re-analysis of the deposited data

How the results depend on the processing

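Under the 7 alternatives planned, the number of members called at 2-fold moved in 2. With no filter beyond 1 count, 1 member was called higher (Me1, at 4 and 14 counts) where 0 had been. With an interval wholly beyond 2-fold, 0 members were called lower in place of 1, since the interval of Fabp5 ends at -0.78. The added 1.5-fold rule gave 1 higher and 6 lower. The median log2 ratio of the measured members was 0.01 to 0.09 under the scalings, filters and prior count, against 0.03. Scalings moved each member's ratio by at most 0.03 and changed the sign of Pnpla2 (size factors and total counts) and Cpt1a (total counts), whose ratios were near 0. A prior count of 2 moved Me1 by 0.42 and no member out of its interval. Over all genes, 248 were higher and 691 lower; the counts were 120 and 347 with the 5 CPM filter, 435 and 1031 with no filter, 67 and 318 with the stricter interval, and 880 and 1344 at 1.5-fold.

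No paired analysis was possible because each genotype has 1 library. No library was left out, as 1 per genotype leaves nothing to compare. Depth limits the sparse members most: the interval reached a median of 0.94 to each side for members under 5 CPM and 0.08 for the 16 members from 50 CPM.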

Other observations

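Several genes near the members had ratios that the naming rule did not pick, and they are given here after their values were seen. Abhd5, the coactivator of the lipase encoded by Pnpla2, had 9.88 CPM in C57BL/6 cells against 18.4 CPM in Ch25h-/- cells, for a log2 ratio of 0.90 (0.62 to 1.18). Slc27a3, a relative of the fatty acid transporters, had 34.1 and 18.2 CPM (-0.91, interval -1.12 to -0.70). Acss1, the mitochondrial relative of Acss2, had 57.7 and 34.0 CPM (-0.76, interval -0.92 to -0.61), while Acss2 stood at 0.46. Slc25a1, the carrier that exports citrate to Acly, had 40.6 and 28.7 CPM (-0.50, interval -0.67 to -0.33), while Acly stood at 0.30.

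The electron acceptors of the acyl-CoA dehydrogenases, Etfa and Etfb, had ratios of 0.43 (0.24 to 0.62) and 0.59 (0.46 to 0.71), the latter from 52.4 and 78.6 CPM. Agpat3, an acyltransferase of phosphatidate synthesis, had 100.5 and 146 CPM (0.54, interval 0.45 to 0.63). Hilpda, an inhibitor of Pnpla2 found on lipid droplets, had 54.3 and 40.8 CPM (-0.41, interval -0.56 to -0.26). Angptl4, a secreted inhibitor of lipoprotein lipase, had 51 and 23 counts (-1.04, interval -1.82 to -0.30).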
